A study of Trachemys scripta elegans with 3 samples.

Results

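Coenzyme Q, or ubiquinone, is a lipid of the inner mitochondrial membrane that takes electrons from several dehydrogenases and hands them to complex III of the respiratory chain. It is built from a ring derived from tyrosine and a long isoprenoid tail derived from the mevalonate pathway, and a set of mitochondrial proteins joins and modifies these parts. In yeast, COQ10 is a lipid-binding protein that binds coenzyme Q and is needed for efficient respiration. The genes described here were selected from the deposited unigene table by words in the text of the best match in NR, the non-redundant protein database. The text had to name the painted turtle genus Chrysemys, or Chelonia, Pelodiscus, Trachemys or Alligator, and to contain a term for coenzyme Q, its synthesis or the chaperone of the bc1 complex, and subunits of NADH dehydrogenase were left out. This gave 13 unigenes out of 31658 that name 1 of these 5 genera and 205118 in all. The starting point was c108401_g1, annotated as a coenzyme Q-binding protein, which the study selected on its measured values, from the genes it called different between salinities in these same libraries. The values of c108401_g1 are therefore a description. The study also measured this gene by quantitative PCR on separate sections of the livers, and those values are not used here.

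Livers came from red-eared sliders (Trachemys scripta elegans), 2 years old, that were kept for 30 days in fresh water (0 psu, the control) or in salt water of 5 or 15 psu, where psu is the practical salinity unit. All turtles were fasted for a day and cold-anesthetized before sampling, and the livers of 3 turtles were mixed into 1 library per salinity. The 3 libraries give no error for any value, no gene was tested, and differences cannot be set against the spread between turtles. The groups were held in pools of differing salinity, so effects of pool and of salinity cannot be told apart. Levels are FPKM, fragments mapped per unit length of unigene and scaled to the size of the library, so that levels of different unigenes can be compared per length. Where 3 values follow each other with no other order given, they are those of 0, 5 and 15 psu. Changes are log2 ratios after adding 0.1 to each FPKM, and a change is counted when it reaches 2-fold.

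Of the 13 unigenes, 12 reached an FPKM of 1 in at least 1 library and 10 were above 0 in all 3 libraries. They carry 9 gene products. Of the 13, 12 are matched best by the painted turtle and 1 by the green turtle, 10 have a KEGG gene name and 9 a Pfam family. The ubiquinone pathway of KEGG lists 3 of them, and terpenoid backbone synthesis lists 2 more. No unigene of a species outside the 5 genera contained the same words. The RefSeq gene table of Trachemys scripta elegans (assembly CAS_Tse_1.0) holds 12 of 13 symbols of the core pathway that were looked up. Subunit 1 of the decaprenyl diphosphate synthase (PDSS1), partner of PDSS2 in making the tail, is among these symbols, but no unigene was matched to it by the words used here.

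c108401_g1 was the one coenzyme Q unigene above 0 in every library that changed 2-fold, 1 of 10 in each comparison. Of the unigenes of the 5 genera above 0 in both libraries compared and with FPKM of 1 or more in either, 14.6% did so in 0 vs. 5 psu, 14.9% in 0 vs. 15 psu and 15.5% in 5 vs. 15 psu. The fresh water library gave an FPKM of 14.8, the 5 psu library 71.8 and the 15 psu library 175. The level was higher at each step of salinity, by 2.27 on the log2 scale from 0 to 5 psu, 3.55 from 0 to 15 psu and 1.28 from 5 to 15 psu. As plain ratios of FPKM these are 4.85, 11.8 and 2.43. The best NR match is the protein named like homolog B of COQ10 (COQ10B-like below), the best Swissprot match is COQ10 homolog B of the frog Xenopus, and the Pfam family is that of polyketide cyclases and lipid transport. At 0 psu c108401_g1 ranked 4 among the 10 unigenes above 0 in all libraries, below COQ8A, COQ9 and COQ4. At 5 and at 15 psu it ranked 1. It made up 9.54%, 35.5% and 54.9% of the summed FPKM of the 13 unigenes at 0, 5 and 15 psu.

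**Figure D1:**
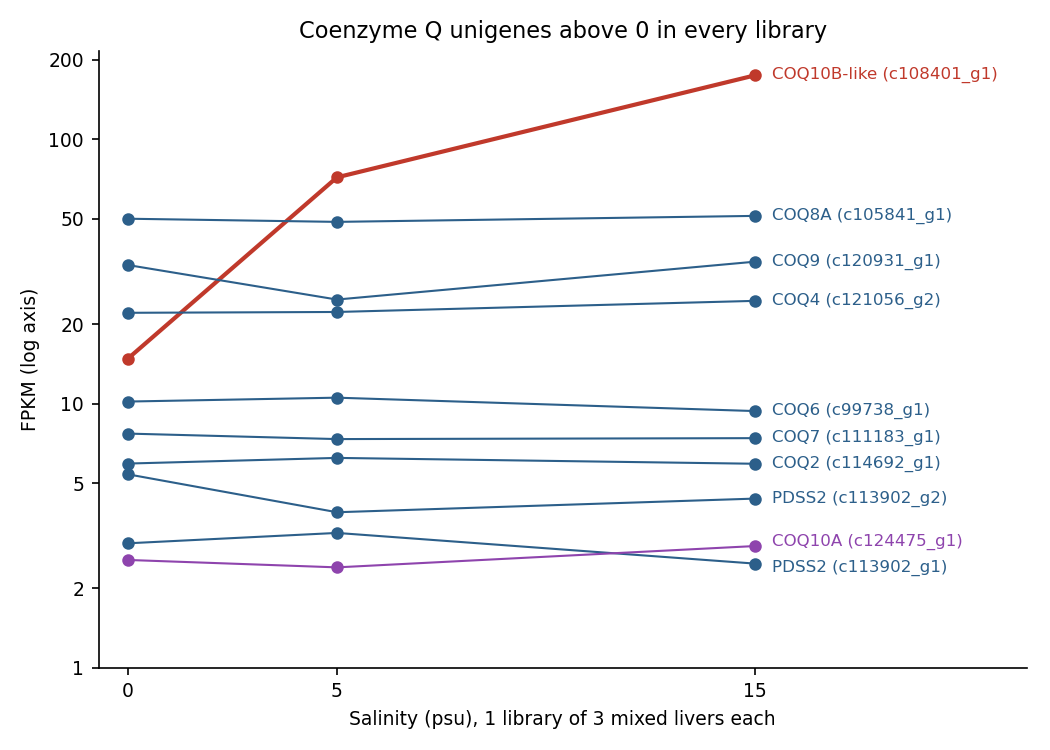
FPKM (log axis) of the 10 coenzyme Q unigenes above 0 in every library against salinity in psu, with 1 point per library and no replicates. COQ10B-like (red) goes from 14.8 through 71.8 to 175, while the other 9 unigenes lie on nearly flat lines.

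The unigene matched to COQ10 homolog A did not share this pattern. COQ10A (c124475_g1), matched to homolog A and carrying the same Pfam family, had FPKM of 2.56, 2.40 and 2.89 in the libraries of 0, 5 and 15 psu. Relative to fresh water this was -0.09 and 0.17 on the log2 scale. The level of COQ10B-like was 5.78, 29.9 and 60.4 times that of COQ10A, in order of salinity.

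The Pfam family of the COQ10 proteins, PF03364, was searched in the whole table, a step chosen after the values were seen. It is assigned to 4 unigenes. Besides the COQ10B-like and COQ10A unigenes, it was found on c109028_g1, whose NR, Swissprot and KEGG names are those of the mitochondrial chaperonin HSP60 (HSPD1) and which also carries the chaperonin family. In the RefSeq table COQ10B and HSPD1 are neighbouring protein-coding genes, and no unigene selected here has plain COQ10B as its best match. Whether c109028_g1 joins transcripts of both genes was not tested. It had FPKM of 14.5, 16.5 and 14.7, with steps of 0.19 and 0.02 on the log2 scale from fresh water to 5 and to 15 psu. This unigene thus differed from c108401_g1 at 5 and 15 psu and was close to it at 0 psu. The remaining unigene of the family, c186927_g1, has no NR match and had an FPKM of 14.9 in the 15 psu library and was listed at 0 in the others.

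**Figure D2:**
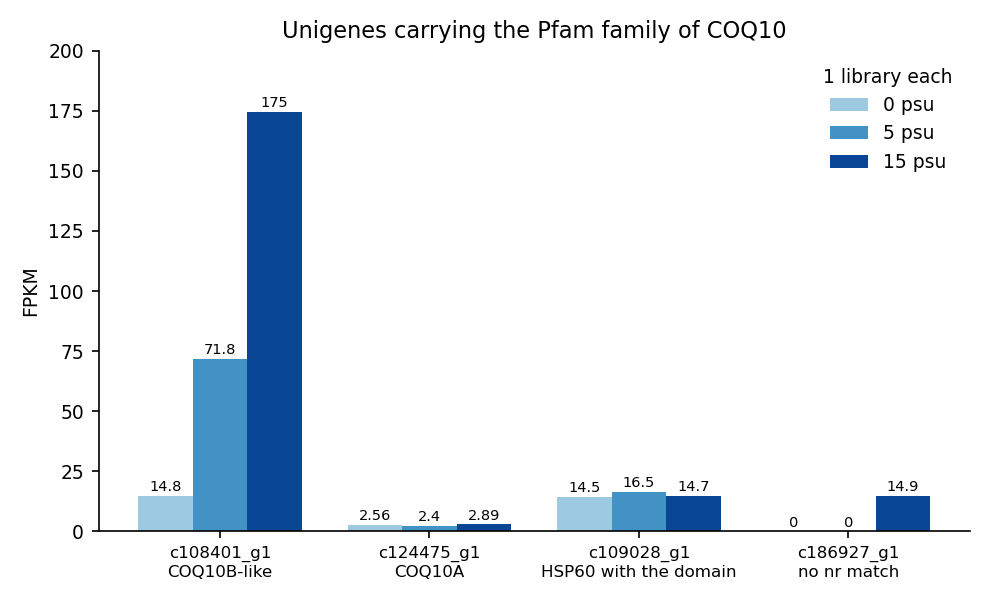
FPKM of the 4 unigenes that carry Pfam family PF03364, with 1 bar per library (0, 5 and 15 psu) and no replicates. The bars of c108401_g1 reach 175, while those of COQ10A stay below 3 and those of the HSP60 unigene lie between 14.5 and 16.5.

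Tail synthesis was covered by PDSS2, the other subunit of the enzyme that makes the isoprenoid tail, in 3 unigenes. The unigene c113902_g2 had FPKM of 5.40, 3.88 and 4.37 at 0, 5 and 15 psu, and c113902_g1 had 2.96, 3.24 and 2.48. From 0 to 5 psu the former was lower (-0.47, log2) and the latter higher (0.13), and neither reached 2-fold. The third, c3736_g1, had an FPKM of 1.01 in the 15 psu library and was listed at 0 in the others. Summed over the 3 unigenes, PDSS2 had FPKM of 8.36, 7.12 and 7.86.

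COQ2 (c114692_g1), which joins the tail to the ring, had FPKM of 5.93, 6.23 and 5.92, a flat profile. KEGG names this unigene both COQ2 and HPSE (heparanase), and the RefSeq table places HPSE and COQ2 side by side, so the value may hold reads of both genes, which was not tested.

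Both hydroxylases of the ring were flat. COQ6 (c99738_g1), a flavin-dependent monooxygenase, had FPKM of 10.2, 10.5 and 9.37. COQ7 (c111183_g1), which hydroxylates the last but one intermediate, had 7.70, 7.34 and 7.40. On the log2 scale the 5 and 15 psu libraries differed from fresh water by 0.05 and -0.12 for COQ6, and by -0.07 and -0.06 for COQ7. A further COQ6 unigene, c37469_g1, was listed at 0 in all 3 libraries.

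The proteins that support the synthesis complex were the most abundant members in fresh water. COQ8A (c105841_g1), an atypical kinase also called the chaperone of the bc1 complex or ADCK3, had FPKM of 50.1, 48.7 and 51.3. The highest of these was 1.05 times the lowest. COQ9 (c120931_g1), a lipid-binding partner of COQ7, had 33.5, 24.8 and 34.4, and its log2 fold change of -0.43 at 5 psu was one of the wider steps among the flat members. COQ4 (c121056_g2), which is required for the complex, had 22.1, 22.2 and 24.5. Another COQ9 unigene, c72629_g1, had an FPKM of 1.21 in the 5 psu library and was listed at 0 in the others.

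For the 9 unigenes other than c108401_g1 that were above 0 in all libraries, the highest FPKM was 1.05 to 1.39 times the lowest, with a median of 1.12. Their log2 fold changes ranged from -0.47 to 0.13 at 5 psu and from -0.30 to 0.17 at 15 psu, each against 0 psu. At each salinity 4 of the 9 were above and 5 below their value at 0 psu. Between 5 and 15 psu the range was -0.37 to 0.47. Apart from c108401_g1, their order of abundance was the same in the 3 libraries except that COQ10A and the lower PDSS2 unigene changed places at 15 psu. The summed FPKM of the 11 unigenes other than COQ10A and COQ10B-like was 138, 128 and 141. The COQ10B-like unigene alone equalled 0.107, 0.560 and 1.24 times this sum.

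With a minimum FPKM of 1 in at least 1 of the libraries compared, 2 of 11 coenzyme Q unigenes changed 2-fold between 0 and 5 psu, both of them higher at 5 psu. Over all unigenes of the 5 genera in that comparison 29.9% changed, 3494 of 21838 being higher and 3030 lower. Between 0 and 15 psu the members again gave 2 of 11, both higher, beside 29.6% in the genera (2862 higher and 3375 lower of 21072). Between 5 and 15 psu 3 of 12 changed, 2 higher and 1 lower, beside 30.5% (2791 higher and 3756 lower of 21500). Of these calls, the ones that are not c108401_g1 belong to c72629_g1 and c3736_g1, which were listed at 0 in a library of each pair. Over all unigenes of the table, without regard to annotation or to values of 0, the share changed was 65.5% in 0 vs. 5 psu, 64.0% in 0 vs. 15 psu and 65.5% in 5 vs. 15 psu. The rule for the members used c108401_g1, so nothing is read from these counts.

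The median log2 fold change of the members was 0.01 in 0 vs. 5 psu, 0.04 in 0 vs. 15 psu and 0.11 in 5 vs. 15 psu. The medians over the unigenes of the genera were 0.08, 0.01 and -0.06 in the same order. Both sets of medians lie close to no change.

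Placed among the 5675 unigenes of the genera with FPKM of at least 10 in a library and above 0 in all, c108401_g1 was in the outer part of the distribution. A total of 22 unigenes, itself included, had a log2 fold change at 15 against 0 psu at least as high, and 63 did at 5 against 0 psu. There were 13 that were 2-fold higher at 5 than at 0 psu and again 2-fold higher at 15 than at 5 psu. The FPKM cut can be met by a single library. Unigenes that are high only at 15 psu therefore enter the set, as did c109971_g1 with FPKM of 0.08, 0.66 and 14.4. Because the study chose c108401_g1 on these same values, its place here is a description, and nothing is read from these counts.

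**Figure D3:**
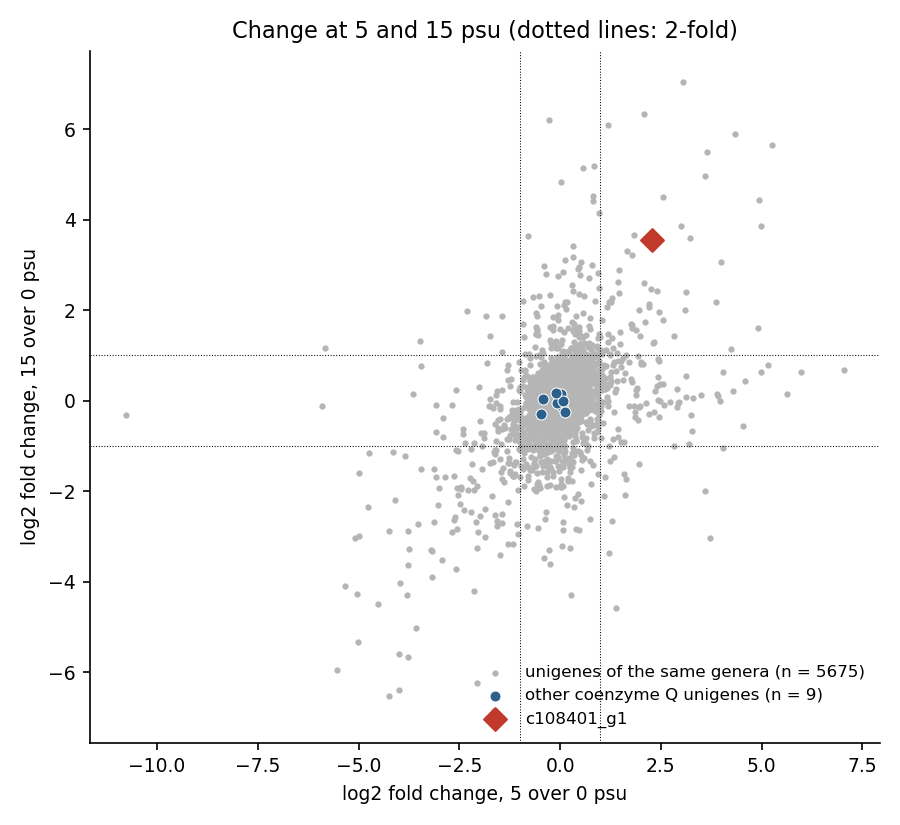
Log2 fold change at 15 over 0 psu against that at 5 over 0 psu, with dotted lines at 2-fold. Grey points are the 5675 unigenes of the 5 genera with FPKM of at least 10 in a library and above 0 in all. The other 9 coenzyme Q unigenes (blue), drawn without the FPKM cut of the grey points, lie near the origin and c108401_g1 (red) at 2.27 and 3.55.

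The unigenes with a pattern most like that of c108401_g1 were found by the distance between pairs of log2 fold changes, at 5 and at 15 psu against 0 psu, over the 3 libraries. Nearest was c118858_g2, matched to a phospholipase A2 inhibitor with a Ly6/PLAUR domain, at a distance of 0.46. It had FPKM of 221, 783 and 2783. Next came c121849_g3, like lithostathine, a secreted lectin of the regenerating protein family, with FPKM of 1.03, 3.79 and 10.4 and a distance of 0.59. The zinc finger protein of c121753_g3 had 2.16, 7.08 and 22.1 at a distance of 0.65. TRPA1 (c116679_g3), a cation channel of sensory neurons, had 1.03, 8.95 and 16.2 at a distance of 0.79. An uncharacterized protein, c122206_g3, had 17.7, 167 and 215 at a distance of 0.96. None of these 5 is named for coenzyme Q.

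The other genes around coenzyme Q were taken from 5 lists of 38 genes. A unigene with FPKM of at least 1 was found for 36, and for 35 of these the most abundant unigene was above 0 in all libraries. Of the 35, 1 changed 2-fold at 5 psu and 1 at 15 psu against 0 psu, and in both cases this was tyrosine aminotransferase. Of the unigenes of the 5 genera above 0 in both libraries, 14.6% and 14.9% changed in these comparisons. These shares, here and for the lists below, count every such unigene with FPKM of 1 or more, minor ones included. The list counts take the most abundant unigene of each gene, so the sets are unlike and nothing is read from the difference. The first list held the enzymes that supply the tail, from hydroxymethylglutaryl-CoA to the prenyl diphosphates. All 8 were found and 0 changed 2-fold in any comparison, beside 14.6% to 15.5% of those unigenes of the 5 genera. The medians of the list were 0.16 at 5 psu and 0.28 at 15 psu against 0 psu. Phosphomevalonate kinase (PMVK), the most abundant, had FPKM of 172, 165 and 203 at 0, 5 and 15 psu. Mevalonate kinase (MVK) had 17.5, 17.9 and 21.4, and farnesyl diphosphate synthase (FDPS), which makes the last shared precursor, had 13.01, 15.8 and 16.5. These 3 enzymes thus had their highest value at 15 psu, at less than 2-fold. The isomerase IDI1 (c106862_g2), named after its values were seen, went the other way, with FPKM of 6.34, 6.20 and 3.55.

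The list for the ring held 2 enzymes of tyrosine breakdown, and both were found. Tyrosine aminotransferase (TAT, c108456_g1), which makes 4-hydroxyphenylpyruvate and was also among the genes the study chose on these libraries, had FPKM of 20.5, 6.35 and 7.93. It was lower by more than 2-fold in both salt water libraries, with -1.68 and -1.36 on the log2 scale. The dioxygenase HPD, which acts on the same keto acid, had FPKM of 110, 74.6 and 89.7. Both enzymes were lower in the salt water libraries than in fresh water, HPD by less than 2-fold, and COQ10B-like was higher.

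Of 7 further coenzyme Q genes that the selecting words could miss, 6 were found. COQ3 (c111226_g3), a methyltransferase of the ring oxygens, had FPKM of 7.91, 7.26 and 8.31, and COQ5 (c121144_g2), the methyltransferase of a ring carbon, had 5.16, 7.63 and 6.90. The most abundant unigene of the ADCK kinase family, ADCK5 (c115113_g1), had 13.1, 15.5 and 10.7. Over all unigenes of the list, 2 of 9 were 2-fold higher and 0 lower at 5 than at 0 psu, with a median of 0.25, and 1 of 10 was higher and 0 lower at 15 psu, with a median of 0.24. From 5 to 15 psu 1 of 11 was higher and 3 were lower, with a median of -0.14. The shares changed in either direction over the unigenes of the 5 genera were 29.9%, 29.6% and 30.5%, in the same order of comparisons. The 2 at 5 psu, named after their values were seen, were ADCK1 (c109317_g1), with FPKM of 0.75, 2.82 and 1.29, and c72393_g1, like HPD, which was listed at 0 except for 1.70 at 5 psu. The 1 at 15 psu was a minor COQ3 unigene, c99751_g1, with 0.53, 0.63 and 1.49. The kinase ADCK4, the close relative of COQ8A, was matched best by a lizard and so lies outside the 5 genera. Its unigene c119127_g1 had FPKM of 5.15, 5.46 and 4.88.

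The list for enzymes that hand electrons to coenzyme Q held 12 genes, and all were found. It counts the subunits SDHA, SDHB, SDHC and SDHD of succinate dehydrogenase as separate genes, and NADH dehydrogenase is not among the 12. Taking the most abundant unigene of each, the medians against fresh water were 0.07 (5 psu) and 0.03 (15 psu) on the log2 scale. Of these, 0 of 12 changed 2-fold in any comparison. The share was 14.6% to 15.5% over all unigenes of the 5 genera above 0 in both libraries, minor ones included. The iron-sulfur subunit of succinate dehydrogenase (SDHB) had FPKM of 84.0, 92.3 and 89.1, and a unigene matched to a probable proline dehydrogenase 2 (c109076_g1) had 78.9, 77.2 and 72.4. Proline dehydrogenase 1 (c119241_g4), listed under the same entry, had 20.4, 16.4 and 17.3. The small cytochrome b subunit of succinate dehydrogenase (SDHD) had 63.3, 70.2 and 72.2. The cytochrome b560 subunit SDHC, named after its values were seen, had 79.7, 61.4 and 55.1, a fall in level that stayed below 2-fold. Of the 18 unigenes of these enzymes tested in each comparison with 0 psu, 1 was lower, a minor unigene of the flavoprotein subunit SDHA (c158237_g1) with an FPKM of 9.97 in fresh water that was listed at 0 in both salt water libraries. From 5 to 15 psu 0 of 17 changed. With values of 0 included, as in these counts, the shares over the 5 genera were 29.9% (0 vs. 5 psu), 29.6% (0 vs. 15 psu) and 30.5% (5 vs. 15 psu).

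For complex III, which takes electrons from coenzyme Q, 8 of 9 nuclear subunits were found and 0 of 8 changed 2-fold in any comparison, again beside 14.6% to 15.5%. The medians were 0.05 at 5 psu and -0.06 at 15 psu against 0 psu. UQCRH, the most abundant, had FPKM of 434, 428 and 421, UQCRB had 102, 132 and 133, and UQCRQ had 61.0, 66.4 and 52.6. The widest step was that of UQCR10, with 39.7, 61.4 and 64.8.

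**Figure D4:**
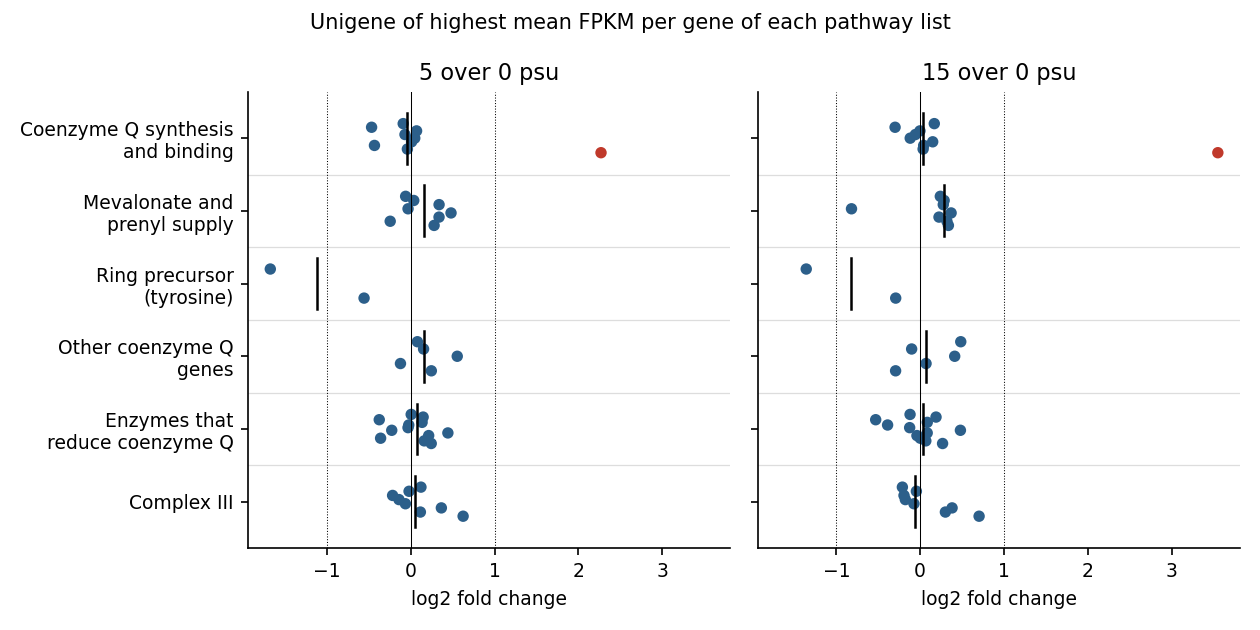
Log2 fold change at 5 over 0 psu (left) and 15 over 0 psu (right) of the most abundant unigene of each gene, for genes above 0 in all libraries, by list, with black bars at the medians and dotted lines at 2-fold. c108401_g1 (red, at 2.27 and 3.55) and tyrosine aminotransferase (at -1.68 and -1.36) are the 2 points past the dotted lines.

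The tissue label was checked with hepatocyte genes. Albumin (c111797_g1) had FPKM of 4846, 824 and 1268, and apolipoprotein A-I had 2751, 2403 and 2569. Of 6 hepatocyte markers 5 were found, and their summed FPKM was 16395, 8246 and 9312. Without the albumin unigenes the sum was 7748, 6716 and 7046, and transthyretin (c102322_g1) had 116, 160 and 98.2. Markers of other cells were also read. The summed FPKM at 0, 5 and 15 psu was 193, 161 and 70.6 for B cells (2 of 2 markers found), 205, 152 and 190 for macrophages (3 of 3), 62.8, 68.0 and 19.97 for cholangiocytes (3 of 3) and 43.7, 44.3 and 53.7 for endothelium (3 of 3). It was 1658, 2080 and 1209 for erythrocytes (2 of 2), 195, 115 and 152 for stellate cells (2 of 3) and 27.9, 4.44 and 2.72 for muscle (2 of 3). The main muscle unigenes, a slow troponin T and an atrial myosin light chain, were listed at 0 in both salt water libraries. The B cell markers had FPKM of 181, 152 and 64.9 (JCHAIN) and 12.4, 8.81 and 5.61 (CD79B). The most abundant hemoglobin unigenes had 350, 470 and 280 (alpha) and 881, 1059 and 588 (beta). The highest ratio of a summed marker list to fresh water was 1.25 at 5 psu (erythrocytes) and 1.23 at 15 psu (endothelium). The sums hide markers of 1 cell type that differed in direction. From 0 to 5 psu the cholangiocyte marker EPCAM went from 43.1 to 58.7 and KRT19 (c98525_g1) from 6.12 to 0.34. At 15 psu EPCAM had 10.3 and this KRT19 unigene 2.39. From 0 to 15 psu endothelial STAB2 went from 24.6 to 35.4, PECAM1 from 11.7 to 12.4 and VWF (c121779_g2) from 4.02 to 3.49. In macrophages CD163 (c124071_g2) had FPKM of 62.6, 27.9 and 37.6 at 0, 5 and 15 psu. CSF1R had 20.6, 13.2 and 19.7, and MRC1 (c115708_g1) had 30.2, 35.45 and 45.5. Of the stellate markers, COL1A2 (c118274_g3) had 31.5, 16.1 and 11.6, and desmin (c114453_g1) had 108, 61.8 and 97.7. These stellate markers differed in direction from 5 to 15 psu. Cell types without a list are not covered by these sums. In mixed tissue, fewer cells of a type and less RNA per cell cannot be told apart. The part of cell composition in these values was not tested.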

How the data were processed

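RNA from mixed livers was sequenced in 1 library for each of 3 salinities. The authors trimmed reads with SeqPrep and Sickle, assembled unigenes with Trinity, annotated them by BLASTX and quantified them with RSEM (the submitters' notes also name Bowtie). Versions are not given in the sources used here. The deposited values are FPKM to 2 decimals. The sample labels write salinity with a percent sign, read here as psu. As given, 20 lines were empty and 205118 unigenes had values. Summed FPKM was 986004, 969628 and 960385 at 0, 5 and 15 psu. Depth per unigene is unknown, so no interval is given. The paper lists the most clean reads for the 5 psu library. Unigenes above 0 numbered 102765, 119996 and 102228 at 0, 5 and 15 psu. The part of this difference in unigenes listed above 0 only at 5 psu, such as c72629_g1 and c72393_g1, was not tested. Among unigenes above 0 in both libraries with mean FPKM from 0.3 to 1, log2 ratios gathered at -0.34 (5 over 0 psu), -0.02 (15 over 0) and 0.32 (15 over 5), and small steps of low unigenes were not read as changes.

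Log2 ratios used a pseudocount of 0.1 and understate the change of low unigenes above 0 in both libraries. For unigenes listed at 0 in 1 of the libraries, the pseudocount sets the size of the change. For c3736_g1 the log2 fold change at 15 over 0 psu was 3.47 with 0.1, 1.01 with a pseudocount of 1 and 6.67 with 0.01. Members and lists were chosen with earlier results of these data known. All members that reached an FPKM of 1 are named. From each list, the highest unigene per gene was taken, and those with FPKM of at least 10 that changed 2-fold, otherwise the 3 most abundant, are named. Other unigenes were named after their values were seen. For 1 of the lists, 1 gene is not reported here and was left out of its counts. Text patterns for dihydroorotate dehydrogenase, hemoglobin and von Willebrand factor were corrected after seeing which unigenes they matched. Alternatives were other pseudocounts, filters and scalings, unigenes above 0 in both libraries, the highest unigene per product and matches to any species. The counting step was run on simulated data without noise or values of 0, which checks the code and not the calls on low unigenes. Python 3.11.15, numpy 2.4.6, pandas 2.3.3 and matplotlib 3.10.9 were used.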

Additional observations from a re-analysis of the deposited data

Results flagged for a closer look

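The unigene c186927_g1, which carries the Pfam family of the COQ10 proteins and has no match in NR, lies outside the words that selected the coenzyme Q genes. It drew attention because its FPKM in the 15 psu library was 14.91, while the control and the 5 psu library list it at 0. The difference was not tested, and no NR, Swissprot or KEGG name gives its organism or gene.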

How the results depend on the processing

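The log2 fold changes of c108401_g1 stayed past 2-fold under all 5 pseudocount and scaling alternatives, from 2.19 to 2.42 at 5 over 0 psu, 3.33 to 3.64 at 15 over 0 psu and 1.09 to 1.35 at 15 over 5 psu. The alternatives shift log2 ratios too little to bring the changes against 0 psu below 2-fold. None of them addresses the spread between turtles, the quantification of reads or the assembly. The study's own values come from its processing of these libraries. Its value for 5 over 0 psu lies above the range given here, and that for 15 over 0 psu lies within it. The study's value for 15 over 5 psu lies below the range given here and just below 2-fold. The count of members changed 2-fold depended on unigenes listed at 0 in a library. It was 2, 2 and 3 in 0 vs. 5, 0 vs. 15 and 5 vs. 15 psu, and became 1 in each with an FPKM filter of 5, with unigenes above 0 in both libraries and with the highest unigene per gene product. With rescaling to a median ratio of 1 and relative to beta-actin, c3736_g1 fell below the filter, and the count became 1 in 0 vs. 15 psu and 2 in 5 vs. 15 psu. The median moved to 0.15 in 0 vs. 5 psu with the upper quartile, and to -0.20 in 0 vs. 15 psu and -0.11 in 5 vs. 15 psu relative to beta-actin. Over all alternatives it lay between -0.07 and 0.15, -0.20 and 0.13, and -0.11 and 0.14, so its sign is not fixed. The upper quartile moved log2 ratios at 5 over 0 psu by 0.14 (before the pseudocount), and scaling to beta-actin moved those at 15 psu by -0.22 over 0 psu and -0.19 over 5 psu. The unigene taken as beta-actin, c115795_g1, is named differently by its sources. NR names actin, cytoplasmic 2, Swissprot names actin, cytoplasmic 1, and KEGG gives ACTB_G1. No paired analysis was possible because each salinity has 1 library. The main limits are that no error can be given, that depth per unigene is unknown, and that a de novo assembly can split or join genes.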

Other observations

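In the ubiquinone pathway of KEGG, which also holds the vitamin K cycle, 12 unigenes are listed in the whole table. Among those not described above, vitamin K epoxide reductase subunit 1 (VKORC1, c114274_g1), which recycles vitamin K for the carboxylation of clotting factors, had FPKM of 46.3, 44.9 and 90.0 in the libraries of 0, 5 and 15 psu. On the log2 scale the 15 psu library was 0.96 above fresh water and 1.00 above 5 psu, at the edge of the 2-fold criterion. Its paralog (c117340_g2) had 2.36, 2.85 and 2.42.

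Another 2 unigenes of quinone synthesis carry names of bacterial enzymes in KEGG and Swissprot. The unigene c144970_g1 (ispB, octaprenyl diphosphate synthase), matched best in NR by a partial protein of a river dolphin, had an FPKM of 33.0 in fresh water and was listed at 0 in both salt water libraries. The unigene c144076_g1 (ubiH, a ring hydroxylase), with no NR match, had 12.5 in fresh water and was likewise listed at 0 in salt water. Both were looked up after their values were seen, and the organism they come from was not tested.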
